A study of Mus musculus with 8 samples.

Results

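Collagens are triple-helical proteins of the extracellular matrix, each assembled from 3 chains that 1 or more genes encode. The collagen genes of the deposited table were taken as all entries whose symbol is Col, a number, a, and a number, which gave 44 of 24341 genes. They were divided by the structure of the protein into 11 fibrillar collagens, 6 type IV chains of basement membranes, 9 FACIT collagens (fibril-associated collagens with interrupted triple helices) and 18 others. Total RNA freed of ribosomal RNA was sequenced in 8 libraries from ventricular lysates of male mice with floxed Med13 and Med13L alleles (Med13/13L fl/fl), aged 12 weeks, on tamoxifen chow and 4 weeks after tamoxifen. The groups are 4 Cre Positive libraries, in which a cardiomyocyte-specific Cre is meant to delete both genes, and 4 Cre Negative libraries with the same alleles and tamoxifen but no Cre. The labels give no name for the Cre line. The comparison asks how collagen transcripts of the ventricle stand with this Cre against without it. Only the Cre Positive group has Cre, so effects of Cre itself and of the deletion cannot be told apart. The deletion is meant for cardiomyocytes, whereas most collagen of the heart is made by other cells of the same lysate.

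In the ventricle, fibroblasts make most of the interstitial collagen. Type I and type III collagen form the fibrils, and type V starts fibrils and limits their width. Type IV collagen forms the sheet-like network of basement membranes around cardiomyocytes and vessels, while FACIT collagens sit on fibril surfaces and type VI collagen forms beaded filaments near cells. Raised collagen transcripts are widely known from injured and pressure-loaded hearts.

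Levels are given as FPKM (sequenced fragments, scaled to transcript length and to the mapped total of the library), and log2 changes are differences of mean log2(FPKM + 1), Cre Positive minus Cre Negative. Estimated depth was 4.52 to 23.4 in units of 1000000 fragments per library. By their level of Rn45s, a precursor of ribosomal RNA, the libraries formed a set of 5 with 396 to 1053 FPKM (Cre Negative 1, 3 and 4, Cre Positive 1 and 2) and a set of 3 with 10.3 to 16 FPKM (Cre Negative 2, Cre Positive 3 and 4). These sets, found in the data, are called the high and low Rn45s libraries below. The low set was also the deeper one, at 15.2 to 23.4 against 4.52 to 8.62 in the units given above. Rn45s level and depth thus cannot be told apart. The low set holds 1 Cre Negative library, which the fit within that set assumes to vary like the Cre Positive ones, so calls gained or lost there rest on an arm of 1 library. Both targeted genes were lower in each Cre Positive library than in each Cre Negative library: Med13 at 7.39 to 8.73 against 10.3 to 15.3 FPKM, and Med13l at 2.35 to 2.59 against 4.38 to 6.13 FPKM. When libraries were scaled to a fixed FPKM sum, Med13 was not called (log2 change -0.22). Whether the 4 libraries of a group came from 4 animals is not stated in words, so p-values measure the spread between these libraries. Lysates hold all cells of the ventricle, so a change in the number of cells of a type and a change in RNA per cell cannot be told apart.

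Most collagen genes that could be tested were higher in Cre Positive ventricles. Of the 44 genes, 21 averaged 1 FPKM or more and were tested, and 15 of these were called higher and 1 lower by limma at an adjusted p under 0.05, where 19.7% of the 11688 genes tested were called higher and 19.4% lower. The 5 not called were Col4a1, Col4a2, Col5a3, Col6a3 and Col18a1. The median log2 change of the 21 was 0.86, against -0.01 over all genes tested. All 16 called genes kept their direction within the high and within the low Rn45s libraries, where the medians of the 21 were 0.73 and 1.18. When each library was scaled to a fixed FPKM sum, the median of all genes moved to 0.25 and 19 of the 21 collagens were called higher and 1 lower, with 45.5% of all tested genes then called higher and 8.89% lower. The additions were Col4a1, Col5a3, Col6a3 and Col18a1. Counted over all 44, the groups did not overlap for 21 genes in the higher and 2 in the lower direction (10.6% and 9.92% of all genes of the table), and among the 21 tested for 15 and 1 (19.3% and 18.7% of tested genes). Col12a1 and Col6a6 reached the mean of 1 FPKM through 1 group only, at 0.458 ± 0.0754 FPKM in Cre Negative and 0.863 ± 0.275 FPKM in Cre Positive libraries (SD, n = 4).

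**Figure D1:**
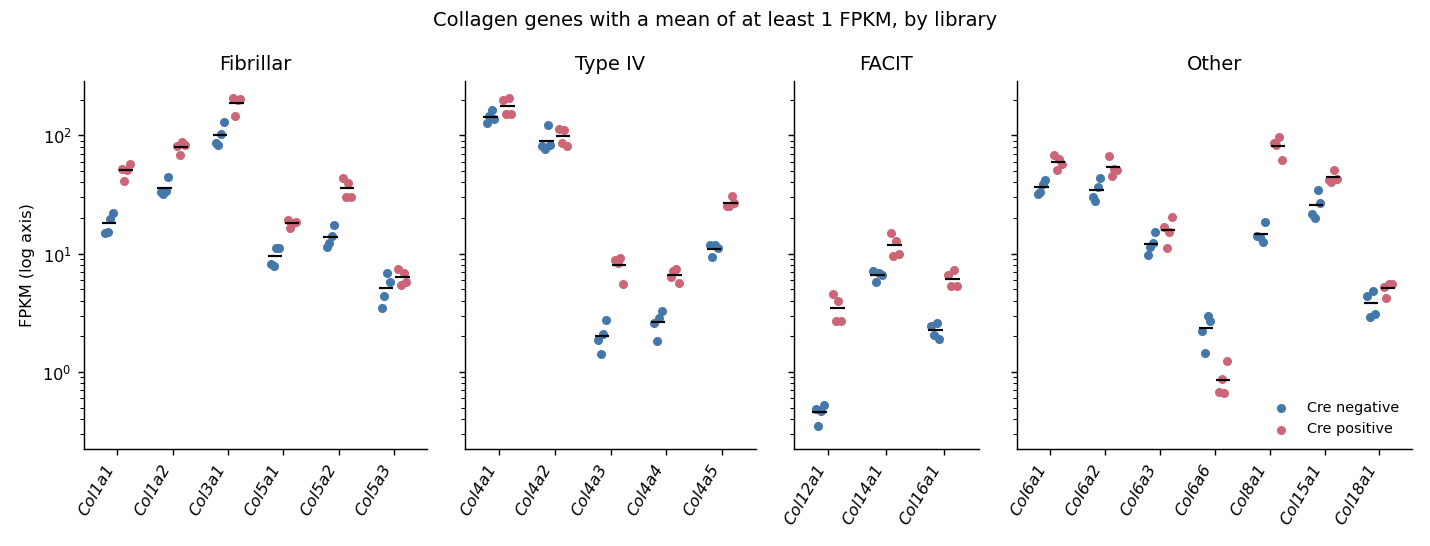
FPKM on a log axis of the 21 collagen genes that were tested, in panels by class. Points are the 4 libraries of each group and bars are group means; Cre Positive points lie above all Cre Negative points for 15 genes and below them for Col6a6.

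Among fibrillar collagens, the chains of types I and III and the major chains of type V were higher in every Cre Positive library than in any Cre Negative library. Of 6 tested members 5 rose and Col5a3 was not called, with a class median of 1.03. Among all tested genes 19.7% were called higher, and for 19.3% the groups did not overlap in that direction. Col1a1, the pro-alpha1 chain of type I collagen (mm10, chromosome 11, 94936270 to 94951856), was at 15, 15.2, 19.8 and 22.1 FPKM in Cre Negative libraries 1 to 4 and at 52.4, 41.4, 51.2 and 57.8 FPKM in Cre Positive libraries 1 to 4. The lowest Cre Positive library was thus well above the highest Cre Negative one. Col1a1 rose from 18.0 ± 3.51 to 50.7 ± 6.83 FPKM (SD, n = 4 each; log2 change 1.45, SE 0.14, limma adjusted p = 2.47e-05).

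Its partner Col1a2, the alpha2 chain of type I collagen (chromosome 6, 4505697 to 4541543), stood at 33.3, 31.8, 34.2 and 44.5 FPKM in Cre Negative and at 81.8, 68.2, 87.3 and 83.6 FPKM in Cre Positive libraries. Cre Negative library 4 was the highest of its group for both type I chains, and Cre Positive library 2 the lowest of its own. The log2 change of Col1a2 was 1.14 (SE 0.12, limma adjusted p = 3.52e-05). Col3a1, the chain of type III collagen and the most abundant fibrillar transcript in all 8 libraries (chromosome 1, 45311538 to 45349706), stood at 86.2, 82.4, 102 and 131 FPKM in Cre Negative and at 208, 145, 201 and 202 FPKM in Cre Positive libraries. The groups did not overlap, but Cre Positive library 2 lay close to Cre Negative library 4. The log2 change of Col3a1 was 0.92 (SE 0.16, limma adjusted p = 0.00117).

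Type V collagen, which co-assembles with type I, rose in 2 of its 3 chains. Col5a2 (chromosome 1, 45374331 to 45503282) stood at 11.4, 12.3, 14.0 and 17.5 FPKM in Cre Negative and at 43.6, 30.4, 39.5 and 29.9 FPKM in Cre Positive libraries (log2 change 1.31, SE 0.15, limma adjusted p = 8.03e-05). Col5a1 (chromosome 2, 27886425 to 28039510) stood at 8.22, 7.89, 11.1 and 11.2 FPKM against 19.4, 16.4, 18.3 and 18.6 FPKM (log2 change 0.86, SE 0.12, limma adjusted p = 2.77e-04). For both, each Cre Positive library exceeded each Cre Negative one. The values of Col5a3, a less widespread chain, overlapped, at 5.13 ± 1.5 and 6.40 ± 0.953 FPKM (SD, n = 4 per group; log2 change 0.29, limma adjusted p = 0.199), and it was called higher without Cre Negative library 3 (log2 change 0.43) and with libraries scaled to equal sums (0.55).

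Of the 5 fibrillar genes under a mean of 1 FPKM, Col11a1 did not overlap between the groups. It encodes a chain that can replace type V chains in fibrils, and stood at 0.0940, 0.01, 0.0232 and 0.0708 FPKM in Cre Negative and at 1.29, 0.357, 0.858 and 0.300 FPKM in Cre Positive libraries. At the estimated depth and the longest annotated transcript, this is at most 5 fragments in a Cre Negative and 24 to 154 fragments in a Cre Positive library. Col2a1, the collagen of cartilage, was listed at the lowest value of the table, 0.01 FPKM, in all 8 libraries. Col11a2, Col24a1 and Col27a1 overlapped, with group means from 0.0158 to 0.404 FPKM.

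Type IV collagen divided by chain: Col4a3, Col4a4 and Col4a5 rose, while the far more abundant Col4a1 and Col4a2 were not called. Of 5 tested members 3 thus rose, with a class median of 1.08, where 19.7% of all tested genes were called higher. The alpha1 and alpha2 chains form the network found in most basement membranes, and the alpha3, alpha4 and alpha5 chains a separate network best known from kidney and lung. The genes lie in 3 head-to-head pairs. In the loci of the table Col4a1 and Col4a2 are 2 bases apart, Col4a4 and Col4a3 71 bases apart, and Col4a6 and Col4a5 1342 bases apart.

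Because the genes of a pair are transcribed outward from a shared stretch, the 250 bases before each start were read from RefSeq on GRCm38.p6, on the strand of the gene. Of the 44 genes 35 had an entry, in 38 windows, and Col4a3 is not among them. The windows of Col4a1, Col4a2 and Col4a4 reach into the transcribed part of the partner gene and are not printed. Those of Col4a5, which rose (chrX:141475169-141475418, plus strand), and of its partner Col4a6 (chrX:141474077-141474326, minus strand) lie wholly between the loci and are shown 5′ to 3′. Capitals mark matches, on either strand, to any of the 5 motifs that were searched.
Col4a5: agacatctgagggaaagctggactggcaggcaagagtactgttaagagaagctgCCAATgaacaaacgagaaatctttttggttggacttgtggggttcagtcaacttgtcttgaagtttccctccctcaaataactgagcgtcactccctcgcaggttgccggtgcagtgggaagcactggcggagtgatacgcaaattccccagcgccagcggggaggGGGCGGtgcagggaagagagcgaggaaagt
Col4a6: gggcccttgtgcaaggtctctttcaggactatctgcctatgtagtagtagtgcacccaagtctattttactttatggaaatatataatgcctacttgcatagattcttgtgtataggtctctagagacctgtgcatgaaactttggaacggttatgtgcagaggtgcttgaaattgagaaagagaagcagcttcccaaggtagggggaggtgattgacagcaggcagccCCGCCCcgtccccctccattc

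The first motif searched was CCAAT, which occurred once in the windows of Col4a1, Col4a2 and Col4a5 and in 33.8% of all 32851 windows of this length. The GC box, GGGCGG, occurred in the windows of Col4a2, Col4a5 and Col4a6 and in 32.7% of all. The TATA box was searched as TATAAA (12.4% of all windows), the TEAD motif as CATTCC (12.6%) and the AP-1 motif as TGANTCA (6.75%), and these were in none of the 5 type IV windows. No motif contains another, and the Col4a4 window held none of them. The share of G and C was 74.4% and 73.6% in the windows of Col4a1 and Col4a2, which were not called, and 62.8%, 54.0% and 47.6% for Col4a4, Col4a5 and Col4a6, against a median of 52.4% over all windows. A match is a run of letters and was not tested for binding.

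Col4a3 (chromosome 1, 82586921 to 82722059) stood at 1.87, 1.41, 2.09 and 2.74 FPKM in Cre Negative and at 8.90, 8.30, 9.21 and 5.52 FPKM in Cre Positive libraries. Its lowest Cre Positive value, in library 4, was still above all 4 Cre Negative values. The log2 change was 1.56 (SE 0.17, limma adjusted p = 4.96e-05). Col4a4 (chromosome 1, 82450723 to 82586849), across the shared stretch, stood at 2.57, 1.82, 2.87 and 3.29 FPKM against 6.36, 7.20, 7.43 and 5.62 FPKM (log2 change 1.08, SE 0.14, limma adjusted p = 1.47e-04). Col4a5 (chromosome X, 141475419 to 141689235), whose chain joins with alpha3 and alpha4 or with alpha6, stood at 11.9, 9.37, 11.8 and 11.1 FPKM against 25.4, 25.3, 30.8 and 26.7 FPKM. Its standard error on the log2 scale was the smallest of the 3, and its log2 change was 1.22 (SE 0.10, limma adjusted p = 7.33e-06).

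Col4a1 (chromosome 8, 11198423 to 11312826), the most abundant collagen transcript by group mean in Cre Negative ventricles, stood at 127, 146, 165 and 137 FPKM in Cre Negative and at 199, 151, 206 and 152 FPKM in Cre Positive libraries. Cre Positive libraries 2 and 4 lay within the Cre Negative range and libraries 1 and 3 above it. The log2 change was 0.29 (SE 0.13, limma adjusted p = 0.0925), and Col4a1 was called higher without Cre Negative library 3 (0.36) and with libraries scaled to equal sums (0.60). Col4a2 (chromosome 8, 11312829 to 11449287) stood at 81.0, 76.2, 122 and 82.4 FPKM against 114, 86.3, 112 and 81.4 FPKM (log2 change 0.13, SE 0.16, limma adjusted p = 0.565). Cre Negative library 3 held the highest Col4a2 value of all 8, and without it the log2 change was 0.28. Col4a6, the sixth chain, was under a mean of 1 FPKM and did not overlap between the groups, at 0.577, 0.421, 0.636 and 0.336 FPKM against 0.815, 1.14, 1.36 and 1.11 FPKM.

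**Figure D2:**
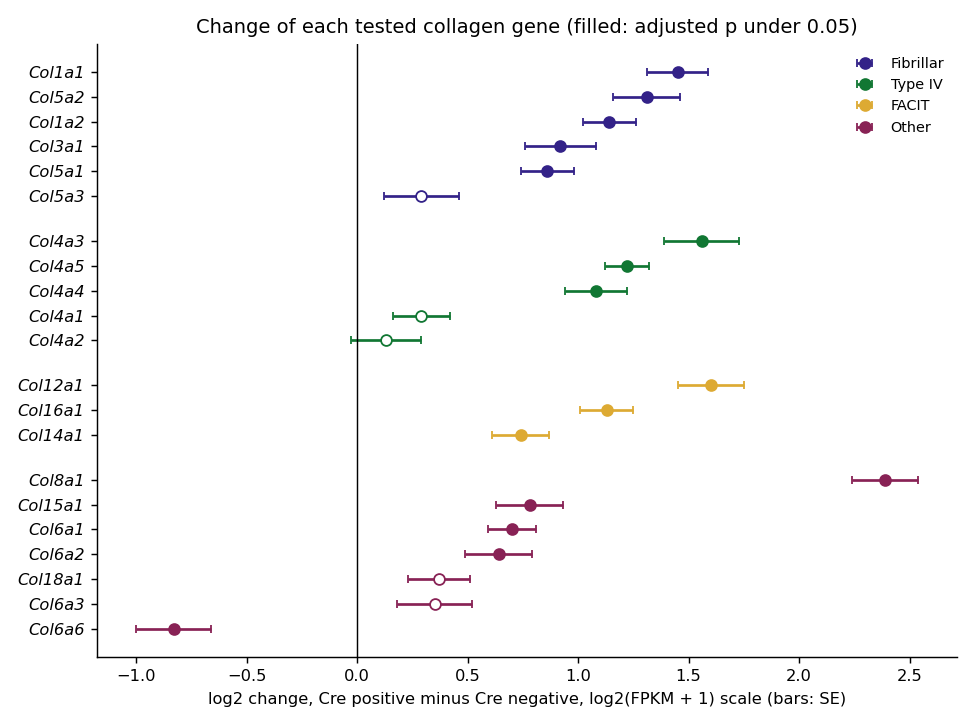
Log2 change, Cre Positive minus Cre Negative, of each tested collagen gene on the log2(FPKM + 1) scale, by class; bars are standard errors of the limma fit and open circles are genes not called. Col8a1 (2.39) lies farthest right, Col6a6 (-0.83) is left of 0, and Col4a1 (0.29) and Col4a2 (0.13) stand apart from Col4a3, Col4a4 and Col4a5 (1.08 to 1.56).

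All 3 tested FACIT collagens were higher in Cre Positive ventricles, with a class median of 1.13, where 19.7% of all tested genes were called higher. Of these 3, Col12a1 reached the level for testing through Cre Positive libraries only. Col12a1, which binds along type I fibrils and is known from tissue under load (chromosome 9, 79598987 to 79718722), stood at 0.487, 0.350, 0.472 and 0.524 FPKM in Cre Negative and at 4.55, 2.69, 3.98 and 2.68 FPKM in Cre Positive libraries. The log2 change of Col12a1 was 1.60 (SE 0.15, limma adjusted p = 1.90e-05) and 2.65 with a pseudocount of 0.1, since adding 1 compresses such low values. Col16a1 (chromosome 4, 130047840 to 130099277) stood at 2.46, 2.07, 2.58 and 1.89 FPKM against 6.60, 5.35, 7.25 and 5.29 FPKM (log2 change 1.13, SE 0.12, limma adjusted p = 4.27e-05).

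Col14a1, which also decorates fibrils and is a frequent fibroblast transcript (chromosome 15, 55307750 to 55520803), was the most abundant FACIT collagen. It stood at 7.19, 5.71, 6.85 and 6.56 FPKM in Cre Negative and at 14.9, 9.54, 12.7 and 9.96 FPKM in Cre Positive libraries (log2 change 0.74, SE 0.13, limma adjusted p = 0.00156). Cre Positive libraries 1 and 3 were the higher ones for each of the 3 genes.

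Among the 6 FACIT genes under a mean of 1 FPKM, Col9a2 did not overlap. It encodes 1 of the 3 chains of type IX collagen, a cartilage protein, and stood at 0.154, 0.0456, 0.0633 and 0.193 FPKM in Cre Negative and at 1.41, 1.30, 1.51 and 0.960 FPKM in Cre Positive libraries. That is an estimated 1 to 3 fragments in each Cre Negative and 19 to 103 in each Cre Positive library. The genes of the other type IX chains were near the lowest value: Col9a1 was at 0.01 FPKM in all 4 Cre Positive libraries, and Col9a3 was at most 0.150 FPKM in any library. Col19a1, Col20a1 and Col22a1 overlapped, with group means from 0.0131 to 0.378 FPKM.

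On the log2(FPKM + 1) scale the largest rise of any tested collagen was that of Col8a1, in the class of other collagens, while with a pseudocount of 0.1 Col12a1 came first (2.65 against 2.46). Of 7 tested members of that class 4 rose, 1 fell and 2 were not called, with a class median of 0.64. Among all tested genes 19.7% were called higher and 19.4% lower. Type VIII is a short-chain collagen that forms hexagonal networks and is known from vessel walls and endothelial basement membranes. Col8a1 (chromosome 16, 57624256 to 57754737) stood at 14.1, 13.9, 12.5 and 18.7 FPKM in Cre Negative and at 85.9, 83.6, 96.7 and 61.8 FPKM in Cre Positive libraries. Every Cre Positive library thus held over 3 times the highest Cre Negative value. The mean ratio was 5.54, and the log2 change was 2.39 (SE 0.15, limma adjusted p = 2.07e-06), or 2.43 in the high and 2.40 in the low Rn45s libraries.

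For Col8a1, the largest change on that scale, the 250 bases before its start (chr16:57754738-57754987, minus strand, RefSeq GRCm38.p6) are shown in the same way. The window held 4 matches to GGGCGG and none to the other 4 motifs.
Col8a1: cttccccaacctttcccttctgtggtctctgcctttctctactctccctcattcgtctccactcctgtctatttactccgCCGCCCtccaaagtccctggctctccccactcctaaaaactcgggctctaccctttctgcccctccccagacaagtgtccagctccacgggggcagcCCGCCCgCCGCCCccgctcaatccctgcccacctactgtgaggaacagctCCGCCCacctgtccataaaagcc

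Col8a2, which encodes the other type VIII chain, was much lower, at 0.352, 0.142, 0.0789 and 0.441 FPKM in Cre Negative and at 2.34, 1.06, 2.01 and 1.34 FPKM in Cre Positive libraries. Its mean over the 8 libraries was 0.970 FPKM, just under the level needed for the test, and its groups did not overlap. Its window also held 4 matches to GGGCGG. With the level for testing set at 0.1 FPKM, Col8a2 was called higher, with a log2 change of 1.08 (limma adjusted p = 5.37e-04).

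Of the type VI chains Col6a1 and Col6a2 rose, Col6a3 was not called and Col6a6 fell. Col6a1 (chromosome 10, 76708792 to 76726044) stood at 31.9, 33.1, 38.6 and 42.3 FPKM in Cre Negative and at 67.9, 51.3, 63.3 and 57.1 FPKM in Cre Positive libraries (log2 change 0.70, SE 0.11, limma adjusted p = 7.67e-04). Col6a2, its neighbour on the same strand (chromosome 10, 76595756 to 76623404), stood at 29.9, 27.9, 36.5 and 43.5 FPKM against 66.5, 45.2, 52.3 and 51.4 FPKM (log2 change 0.64, SE 0.15, limma adjusted p = 0.00729). The gap between groups was narrow for Col6a2, whose call was lost in the high Rn45s libraries alone (0.58) and with no level for testing (limma adjusted p = 0.0516). Col6a3, the long chain that completes the usual type VI molecule, overlapped at 12.2 ± 2.34 and 16 ± 3.88 FPKM (SD, n = 4 per group; log2 change 0.35, limma adjusted p = 0.139). Col6a3 gained the call without Cre Positive library 2 (0.50) and with libraries scaled to equal sums (0.64). Its log2 change was 0.61 in the low Rn45s libraries alone, a set with 1 Cre Negative library.

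Col6a6, an alternative to the alpha3 chain, was the 1 collagen called lower. It reached the level for testing through Cre Negative libraries only, at 2.35 ± 0.678 FPKM against 0.863 ± 0.275 FPKM in Cre Positive libraries (SD, n = 4 per group). It (chromosome 9, 105689417 to 105828085) stood at 2.24, 1.45, 3.00 and 2.71 FPKM in Cre Negative and at 0.675, 0.869, 0.659 and 1.25 FPKM in Cre Positive libraries. The groups were parted by the small step from Cre Positive library 4 to Cre Negative library 2. The log2 change of Col6a6 was -0.83 (SE 0.17, limma adjusted p = 0.00294). It was -1.04 in the high against only -0.34 in the low Rn45s libraries, a set with 1 Cre Negative library. The neighbours of Col6a6 on chromosome 9, Col6a5 and Col6a4, were at most 0.0440 and 0.0280 FPKM in any library.

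The multiplexins Col15a1 and Col18a1 encode collagens of basement membrane zones that carry sugar chains and release the fragments restin and endostatin. Col15a1 (chromosome 4, 47208012 to 47313165) stood at 21.5, 20, 34.7 and 26.7 FPKM in Cre Negative and at 42.2, 40.5, 50.6 and 43.0 FPKM in Cre Positive libraries (log2 change 0.78, SE 0.15, limma adjusted p = 0.00253). Its groups did not overlap, and Cre Negative library 3 was again the highest of its group. Col18a1 overlapped at 3.81 ± 0.941 and 5.13 ± 0.606 FPKM (SD, n = 4 per group), with a log2 change of 0.37 (limma adjusted p = 0.0650). Col18a1 was called higher without Cre Negative library 3 (0.46) and with libraries scaled to equal sums (0.61). Its log2 change was 0.74 in the low Rn45s libraries alone, which hold 1 Cre Negative library.

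Of the 23 collagens under a mean of 1 FPKM, 13 averaged at least 0.1 FPKM over the 8 libraries and 10 were listed at the lowest value of the table in at least 1 library. Groups did not overlap for 6 of them in the higher and for Col6a5 in the lower direction, where 2.63% and 1.81% of the 12653 genes of the table at that level did not overlap. These shares are a low mark, since genes at the lowest value in all libraries cannot part. In each library 32.6% to 39.0% of all genes of the table were at that value. The 6 were Col11a1, Col4a6, Col9a2, Col7a1, Col8a2 and Col23a1. With the level for testing at 0.1 FPKM, limma called 20 collagens higher, the 15 and all of these but Col7a1, where 17.0% of 14617 genes were called higher. With no such level it called 18, where 8.45% of 24341 genes were called higher. Col7a1, the anchoring fibril collagen of skin, rested on an estimated 5 to 13 fragments per Cre Positive library and at most 3 per Cre Negative library. Col23a1, a transmembrane collagen, stood at 0.413, 0.431, 0.449 and 0.365 FPKM in Cre Negative and at 1.11, 0.748, 0.697 and 0.519 FPKM in Cre Positive libraries. The difference for Col6a5 was between at most 6 and at most 4 estimated fragments per library.

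Col26a1 came near to parting, at 0.0927 to 0.257 FPKM in Cre Negative and 0.165 to 1.19 FPKM in Cre Positive libraries, with Cre Positive library 2 inside the Cre Negative range. Col10a1, Col13a1, Col17a1, Col25a1 and Col28a1 had lower means in Cre Positive libraries but overlapped. The locus of Col10a1 overlaps that of Nt5dc1, a gene on the other strand that reached 6.81 FPKM, and no source used here says whether fragments were assigned by strand.

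**Figure D3:**
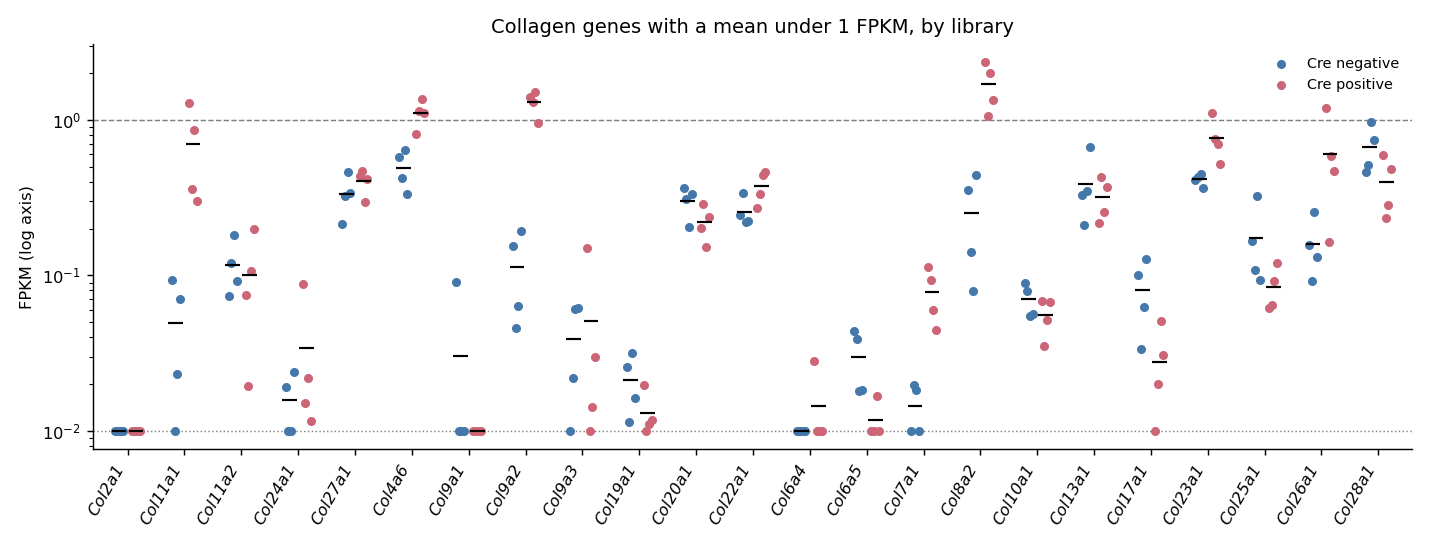
FPKM on a log axis of the 23 collagen genes with a mean under 1 FPKM; points are libraries, bars are group means, the dashed line is 1 FPKM and the dotted line is the lowest value of the table, 0.01 FPKM. Col9a2, Col8a2 and Col11a1 show the widest gap between the groups.

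Neighbouring collagen genes on a chromosome, beyond the type IV pairs, moved as follows. Col3a1 and Col5a2 lie tail to tail 24.6 kb apart and both rose. Col6a2 and Col6a1 are 85.4 kb apart on the same strand and both rose. In the row of Col6a6, Col6a5 and Col6a4, with gaps of 28.0 and 29.7 kb, only Col6a6 was high enough to be tested.

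The balance between 2 chains that share a molecule, a fibril or its surface, or a membrane zone was compared within libraries. The plain ratio of 2 chains within a library does not depend on how libraries were scaled. The log2 ratio that was tested had 0.1 FPKM added to each chain, so scaling does not cancel fully for low chains such as Col12a1. For 10 ratios both chains averaged 1 FPKM or more. These were compared by exact permutation of the 8 libraries (70 assignments, two-sided), with p-values adjusted over the 10. Of these, 6 were separated completely, each with the smallest p the design allows (exact p = 0.0286, adjusted p = 0.0476). The adjusted value is under 0.05 only while 6 ratios share that p, so a pseudocount of 1 in place of 0.1 ended the calls (adjusted exact permutation p = 0.0571 or 0.0816 for the 6). Col12a1 reached the level of 1 FPKM through Cre Positive libraries only, and without its ratio to Col14a1 the other 5 were not called (adjusted exact permutation p = 0.0514 over 9 ratios). Leaving out any one of Cre Negative libraries 1 and 3 or Cre Positive libraries 1, 2 and 3 left 0 calls, and so did averaging Cre Negative libraries 1 and 2.

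The share of Col1a1 relative to Col3a1, Col5a1 and Col1a2 was higher in each Cre Positive library than in any Cre Negative one. The ratio of Col3a1 to Col1a1 was 5.76, 5.42, 5.15 and 5.93 in Cre Negative and 3.98, 3.52, 3.93 and 3.49 in Cre Positive libraries, so the excess of type III over type I transcript was smaller in each Cre Positive library. The ratio of Col5a1 to Col1a1 went from 0.535 ± 0.0241 to 0.361 ± 0.0304, that of Col1a1 to Col1a2 from 0.501 ± 0.0558 to 0.631 ± 0.0455, and that of Col5a1 to Col5a2 from 0.700 ± 0.0742 to 0.517 ± 0.0821 (SD, n = 4 per group). The difference between groups was narrowest for Col1a1 to Col1a2, where the highest Cre Negative library had 0.580 and the lowest Cre Positive library 0.586.

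In the head-to-head pair the balance of Col4a3 to Col4a4 went from 0.727, 0.778, 0.729 and 0.833 to 1.40, 1.15, 1.24 and 0.983. Col4a4 was thus the higher of the pair in all Cre Negative libraries and Col4a3 in 3 of the 4 Cre Positive libraries. The ratio of Col12a1 to Col14a1 went from 0.0694 ± 0.00768 to 0.292 ± 0.0200 (SD, n = 4 per group). The ratios of Col4a1 to Col4a2 (1.62 ± 0.237 and 1.80 ± 0.0649; exact p = 0.171) and of Col6a1 to Col6a2 (1.07 ± 0.0885 and 1.12 ± 0.0785; exact p = 0.429) overlapped. Those of Col6a3 to Col6a1 (exact p = 0.114, adjusted p = 0.143) and of Col15a1 to Col18a1 (exact p = 0.0857, adjusted p = 0.122) also missed the threshold. In the high and the low Rn45s libraries the log2 difference was -0.58 and -0.54 for Col3a1 to Col1a1, 0.72 and 0.48 for Col4a3 to Col4a4, and -0.55 and -0.26 for Col5a1 to Col5a2. It was 0.30 and 0.41 for Col1a1 to Col1a2, -0.50 and -0.62 for Col5a1 to Col1a1, and 1.81 and 1.94 for Col12a1 to Col14a1.

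**Figure D4:**
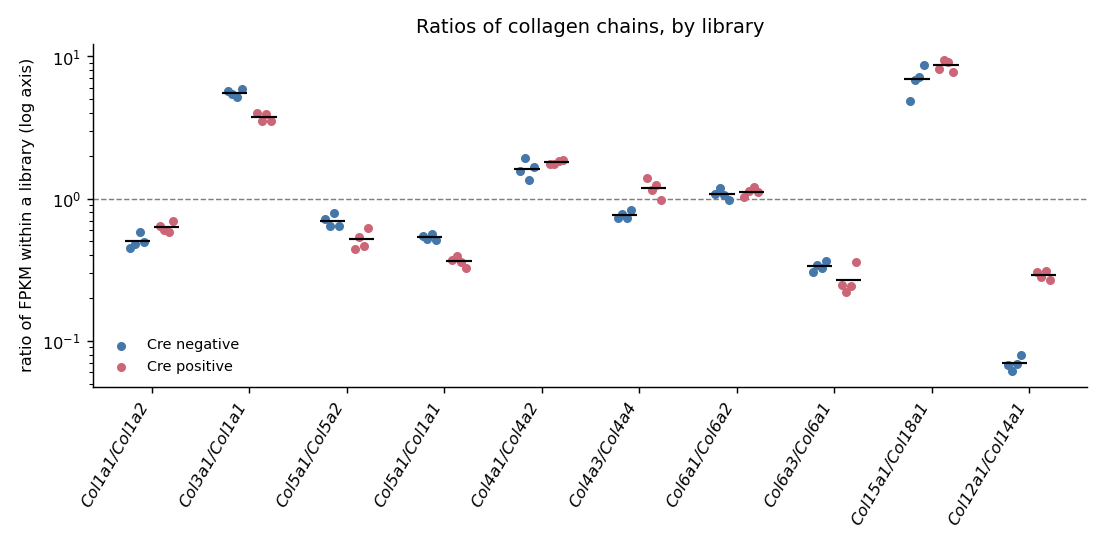
Ratio of the FPKM of 2 collagen chains within each library, on a log axis; points are libraries, bars are group means and the dashed line is a ratio of 1. The groups are parted for 6 of the 10 ratios, most widely for Col12a1 to Col14a1 (means 0.0694 and 0.292).

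Summed over the 44 genes, collagen transcripts stood at 509.5, 511, 649 and 634 FPKM in Cre Negative and at 1088, 847, 1087 and 935 FPKM in Cre Positive libraries. Type IV chains made up 43.6% ± 4.35 of this sum in Cre Negative and 32.1% ± 2.02 in Cre Positive libraries, and fibrillar chains 31.7% ± 3.37 and 38.6% ± 2.76 (SD, n = 4 per group). The share of type IV was lower in each Cre Positive library, while that of fibrillar chains overlapped slightly, since Cre Negative library 4 had 36.7% and Cre Positive library 2 had 36.4%. Col8a1 went from 2.59% ± 0.457 to 8.32% ± 1.40 of the sum, Col4a1 from 25.1% ± 2.89 to 17.8% ± 1.13, and Col3a1 stood at 17.4% ± 2.25 and 19.1% ± 1.84. Shares of a sum are bound to each other, and they are given here as a description.

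**Figure D5:**
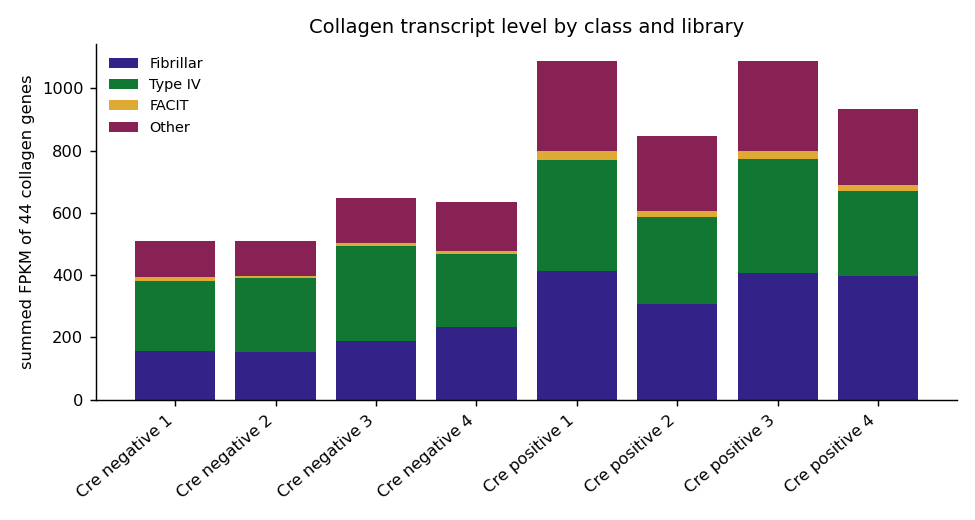
Summed FPKM of the 44 collagen genes in each library, stacked by class. The sum is 509.5 to 649 FPKM in Cre Negative and 847 to 1088 FPKM in Cre Positive libraries, and FACIT collagens are the thinnest layer throughout.

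Of 32 genes that modify, trim, export and crosslink collagen, 29 were tested, 16 rose, 2 fell and 11 were not called, with a median log2 change of 0.28, where 19.7% of all tested genes were called higher and 19.4% lower. The number that rose was 13 in the high Rn45s libraries and 14 without Cre Negative library 1 or Cre Positive library 3. The largest rises were those of Lox (1.69), a lysyl oxidase that starts crosslinks, P3h2 (1.57), a prolyl 3-hydroxylase that acts on type IV collagen among others, and Loxl4 (1.37). Lox stood at 1.45 ± 0.212 and 7.15 ± 2.49 FPKM and P3h2 at 1.66 ± 0.243 and 6.95 ± 1.16 FPKM (SD, n = 4 per group). All 5 lysyl oxidase genes were called higher, Loxl4 having reached the level for testing through Cre Positive libraries (0.617 ± 0.232 and 3.17 ± 0.470 FPKM). The procollagen proteases and their enhancers Adamts2 (1.08), Pcolce (1.05), Pcolce2 (0.70) and Bmp1 (0.51), which free the ends of fibrillar procollagens, rose as well, whereas Adamts3 (0.15) was not called and Adamts14 and Tll1 were too low to be tested.

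The most abundant gene of the list, Serpinh1, the collagen chaperone HSP47, was not called, at 152 ± 20 and 160.3 ± 12.7 FPKM (SD, n = 4 per group; log2 change 0.08, limma adjusted p = 0.576). P4hb, a subunit of prolyl 4-hydroxylase, rose by 0.25, while the catalytic subunits P4ha1 and P4ha2 had log2 changes of 0.25 and -0.14 and were not called. Among lysyl hydroxylases Plod2 (0.52) and Plod3 (0.47) rose and Plod1 fell (-0.34). Ctage5, which serves the export of large cargo such as procollagen, fell by 0.48. With libraries scaled to equal sums 23 genes of the list were called higher, Serpinh1 (0.39) and P4ha1 (0.55) among them, where 45.5% of all tested genes were, and Plod1 (-0.04) and Ctage5 (-0.18) were not called. P4ha3 was listed at 0.01 FPKM in all 4 Cre Negative libraries and at 0.163 to 0.549 FPKM in Cre Positive libraries.

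Of 16 genes of collagen receptors and collagen breakdown, 11 were tested, 6 rose and 5 were not called, beside the same 19.7% and 19.4% of all tested genes. Ddr1, a receptor tyrosine kinase that binds collagen, rose from 6.55 ± 0.724 to 14.4 ± 1.45 FPKM, and Mrc2, which takes up collagen fragments, from 5.85 ± 0.137 to 12.8 ± 0.732 FPKM (SD, n = 4 per group). Ctsk rose by 0.80, Mmp2 by 0.78 and Itgb1, the beta1 integrin, by 0.59 on the log2 scale. Itga11 (0.41), which reached the level for testing through Cre Positive libraries (0.963 ± 0.231 and 1.61 ± 0.282 FPKM), lost its call with no such level and within the high Rn45s libraries (0.38). In the low Rn45s libraries, with 1 Cre Negative library, the log2 change of Itga11 was 0.57. Ddr2, the collagen receptor of fibroblasts, was not called, at 9.44 ± 0.665 and 9.16 ± 0.832 FPKM. Itga1 (log2 change 0.02), Mmp14 (0.40), Fap (-0.26) and Lair1 (-0.22) were not called either, and Itga1 (0.31) and Mmp14 (0.67) were called higher with libraries scaled to equal sums. Mmp13, too low to be tested, was at 0.305 to 0.530 FPKM in Cre Negative and 0.121 to 0.241 FPKM in Cre Positive libraries. Of genes under a mean of 1 FPKM 1.81% parted in that direction. Mmp13 was called lower with no level for testing (limma adjusted p = 0.0395) but not at 0.1 FPKM (limma adjusted p = 0.0525).

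Marker genes of other cells of the lysate moved beside the collagens. The counts below stand beside the 19.7% of all tested genes that were called higher and the 19.4% called lower. Among 7 fibroblast markers Mfap5 (1.80), Tcf21 (0.51) and Lum (0.48) rose, Dpt fell (-0.53) and Dcn, Gsn and Pdgfra were not called. Their summed level was 989.7 to 1119 FPKM in Cre Negative and 1174 to 1473 FPKM in Cre Positive libraries. Most of this sum came from Gsn (means 521 and 648 FPKM) and Dcn (399 and 466 FPKM), which were not called. Of 6 genes linked with activated fibroblasts 5 were tested, and Cilp (2.56), Comp (2.39), Postn (2.29) and Fn1 (0.73) rose, with sums of 50.5 to 71.1 and 217 to 313 FPKM. Tnc (1.09) was not called, at 0.366 to 0.967 FPKM in Cre Negative and 0.792 to 9.02 FPKM in Cre Positive libraries. Cthrc1, a defining gene of that state, was too low to be tested, at most 0.987 FPKM in any library. Its groups overlapped, at 0.138 ± 0.140 and 0.671 ± 0.332 FPKM (SD, n = 4 per group). With the level for testing at 0.1 FPKM it was called higher (log2 change 0.54), where 17.0% of all genes were, but not with no such level.

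Of all tested genes 19.7% were called higher and 19.4% lower, against which the next counts stand. Sums of the FPKM as listed were lower in each Cre Positive library for endothelial markers (354 to 406 against 285 to 336 FPKM, 2 of 6 fell), macrophage markers (225 to 275 against 135 to 202 FPKM, 4 of 6 fell) and cardiomyocyte markers (38843 to 43868 against 14344 to 16148 FPKM, 5 of 6 fell). Those of smooth muscle and pericytes overlapped (437 to 495 and 389 to 450.2 FPKM), with Cnn1 (4.11) and Tagln (0.62) higher and Abcc9 (-1.08) and Kcnj8 (-0.39) lower among 8. The low sum of Schwann cell markers was also lower in each Cre Positive library (2.27 to 2.50 against 1.65 to 1.96 FPKM), while that of mesothelial markers overlapped (1.17 to 2.97 and 1.02 to 2.18 FPKM), and Wt1 (-0.44) alone of these 8 genes was high enough to be tested. With libraries scaled to equal sums the calls of Cdh5 (-0.06), Kcnj8 (-0.09), Csf1r (-0.17), Lyz2 (-0.36) and Wt1 (-0.27) were lost. In the same setting Dcn (0.53), Gsn (0.61), Pdgfra (0.50), Tnc (1.26), Egfl7 (0.25), Pdgfrb (0.41), Notch3 (0.31) and Actn2 (0.30) were called higher. Sums were not taken in that setting, where log2 changes were -0.35 to 0.25 for endothelial and -0.43 to 0.18 for macrophage markers. The part of these cell types in the collagen changes was not tested.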

How the data were processed

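FPKM per gene symbol and library were made by the authors with Cufflinks; the submitters' processing notes also list Bowtie2 2.2.6 and mm10. No source used here gives the settings, the annotation or any filter. The table's lowest value is 0.01 FPKM. Columns were matched to samples by the labels' descriptions, and 0 columns were left over. In 6 cells of 3 genes, none of them a collagen, a word replaces the value and was treated as missing. Starts of loci were moved to count from 1.

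Log2(FPKM + 1) was fitted with limma 3.58.1 in R 4.3.3 (eBayes with trend) over the 11688 genes that averaged 1 FPKM or more across libraries, with Benjamini-Hochberg adjustment over all of them and calls at an adjusted p under 0.05. The script was tested on simulated data. Depth was estimated from the value of a single fragment in 3664 genes with 1 GENCODE transcript of 500 to 4000 bases. For a transcript of 2 kb, 1 FPKM equals 9.04 to 46.8 fragments, and the 3 fragments that a count of 0 allows equal 0.0641 to 0.332 FPKM. Both cover counting error only.

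Members, classes, lists and tests were chosen with earlier results of these data known. Values in every library are given for the called members with the largest change (up to 5 per direction) and the 3 most abundant of each class. For the lists, the called members with the largest change and the 2 most abundant were to be named; others named were chosen after their values were seen. Alternatives were other pseudocounts, filters and scalings, Rn45s sets, a replicate block, leaving out libraries, and averaging Cre Negative 1 and 2, whose library names share a start.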

Additional observations from a re-analysis of the deposited data

Results flagged for a closer look

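Within groups of 4, single libraries stood far from the other 3 in 3 of the 56 checks on collagen genes, where chance alone gives about 1 in 20. Checked were the 21 tested collagens and the 7 under 1 FPKM whose groups did not overlap. Cre Positive library 2 had 145 FPKM of Col3a1, against 201 to 208 FPKM in the other 3. Cre Negative library 3 had 122 FPKM of Col4a2, against 76.2 to 82.4 FPKM in the other 3. Cre Positive library 3 had 0.0168 FPKM of Col6a5, where the other 3 were listed at 0.01 FPKM, so that any other value would have been flagged.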

How the results depend on the processing

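Over 22 alternatives, 448 of 462 values of the 21 tested collagens kept direction and call, 3 lost and 11 gained the call, and none reversed. Collagens called higher numbered 15, and 14 to 20 under the alternatives, with 20 at a level of 0.1 FPKM (17.0% of 14617 genes called higher) and 18 with no such level (8.45% of 24341). The 1 called lower became 0 in the low Rn45s libraries alone (1 Cre Negative against 2 Cre Positive), where 7 other collagens in place of 4 were called higher and 4 biosynthesis genes in place of 2 lower. Under scaling to a fixed sum 0 biosynthesis genes were called lower. At an unadjusted limma p under 0.05 these counts of 0 were also 0. Receptor and turnover genes called lower numbered 0 with limma, also without adjustment, 1 with no level (Mmp13) and 0 to 1 without single libraries (1 without Cre Negative 2). The 6 called ratios became 0 with pseudocount 1, 0 with Cre Negative 1 and 2 averaged, 0 without the ratio of Col12a1 to Col14a1 (added after seeing the data) and 0 to 6 without single libraries (0 without Cre Negative 1 or 3 or Cre Positive 1, 2 or 3). The log2 ratios of Col4a1 to Col4a2 (-0.05) and Col6a1 to Col6a2 (-0.03) reversed in the low Rn45s libraries. The cause was not tested.

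Deviations of same-numbered libraries correlated at -0.162 to -0.078, so the numbers do not pair samples; with a replicate block 16 collagens were called higher and 1 lower, and 14 biosynthesis genes higher (13 to 23 over all alternatives). Cre Negative 1 and 2 differed by an SD of 0.355 (log2), the lowest of the 0.355 to 0.462 among Cre Negative pairs. Cre Negative 1 and 3 were practically the same at 0.356, and Cre Positive pairs differed by 0.277 to 0.39. Without the 2 libraries whose column names lack "trim", an alternative added after seeing the data, 16 were called higher and 1 lower. Shares of all genes called were taken for the main fit, the other levels for testing and the fixed sum only. Counts under the other alternatives thus cannot be set against all genes. Depth limits the 23 collagens under 1 FPKM most.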
